A study of Sus scrofa with 12 samples.

Results

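Interleukins, chemokines, members of the tumour necrosis factor (TNF) family, colony-stimulating factors and the receptors of these proteins were examined in pig fat cells and ovarian granulosa cells before and after culture. The set holds every gene whose only symbol in the platform annotation begins with IL, CCL, CCR, CXCL, CXCR or CSF followed by a digit, begins with TNFSF or TNFRSF, or is TNF, LIF or LIFR. These symbols gave 69 genes of the 6765 genes with 1 symbol on the array. They were read by 80 probe sets, and a probe set is a group of short probes that together give 1 value. A gene with several probe sets is given by the one with the highest mean over the 12 arrays. LIFR, its partner chain IL6ST and the receptor CSF1R were not analysed here.

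The study used the Affymetrix porcine genome array on 4 groups of 3 arrays. Mature adipocytes (MA) were isolated from pig fat tissue. Dedifferentiated fat cells (DFAT) came from such adipocytes by ceiling culture, in which the floating cells attach to the upper wall of a filled flask, and were then grown to semiconfluence. Granulosa cells (GC) came from ovarian follicles, and dedifferentiated granulosa cells (DFOG) were GC grown in vitro to semiconfluence. The age and breed of the pigs, and whether animals were pooled, are not given in the sources used here. No genotype or added agent is named for any group. Both comparisons set isolated cells against cultured cells, so dedifferentiation and culture itself cannot be told apart. The labels call the arrays biological replicates without naming animals or cultures, so the p-values reflect only how much these samples vary, which may be technical.

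Chemokines are small secreted proteins that draw leukocytes along a gradient through receptors of the CCR and CXCR families. Interleukins and colony-stimulating factors act on receptor chains that mostly signal through JAK kinases and STAT factors, while the IL-1 family and TNF receptors lead mainly to NF-kB. In fat tissue, adipocytes, stromal cells and resident macrophages are known to secrete CCL2 and IL6. In the ovary, cytokines such as LIF and IL6 are known from follicular fluid and from ovulation, which resembles an inflammatory reaction.

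Values are log2 expression levels, on which a difference of 1 is a doubling. The probe sets of different genes differ in brightness, so levels are compared between groups and not between genes. The files hold no detection calls. The highest group mean lay under 6.53, the median of all probe sets, for 44 of the 69 genes and under 4.60, the bound used for a filter on dim probe sets, for 14 of them. Changes may be understated for such genes, and also where 1 of the groups compared is that dim. DFOG replicates 2 and 3 were nearly identical, with an SD of their differences of 0.07 against 0.31 to 0.62 in the 11 other replicate pairs, and they entered as 1 averaged sample, which gives DFOG n = 2 and the other groups n = 3. The values of DFOG are given as replicate 1 and then the mean of replicates 2 and 3. Adjusted p-values are from limma, Benjamini-Hochberg corrected across the 23999 tested probe sets, and a gene rose or fell where this value was under 0.05.

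Defining markers were compared with the labels. All 6 measured adipocyte markers fell from MA to DFAT, and their summed level, on the log2 scale, was 15.75 to 15.86 in MA and 9.88 to 11.21 in DFAT. The summed level of 8 granulosa markers was 15.19 to 15.56 in GC and 9.24 to 9.29 in DFOG. Of these, CYP19A1, the oestrogen-making aromatase, and the transcription factor FOXL2 lay at 4.95 ± 0.15 and 5.56 ± 0.15 (SD, n = 3) in GC, no higher than in MA (5.03 and 5.70). The summed level of 9 macrophage and monocyte markers was 9.21 to 10.20 in MA, 7.93 to 8.54 in DFAT, 7.50 to 7.70 in GC and 7.89 to 8.12 in DFOG. Markers of lymphocytes summed to 7.57 to 7.95 in MA and 7.32 to 7.61 in DFAT, those of endothelial cells to 9.26 to 10.11 and 8.35 to 8.61, and those of neutrophils to 8.04 to 8.63 and 7.18 to 9.01. The actin 3′ minus 5′ difference, which grows when RNA is shorter, was 1.5 to 2.48 in MA and 0.72 to 1.76 in GC against 0.33 to 0.97 in DFAT and 0.15 to 0.62 in DFOG. Calls of the dedifferentiation comparisons that were lost with this difference as a covariate are named beside each gene.

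**Figure D1:**
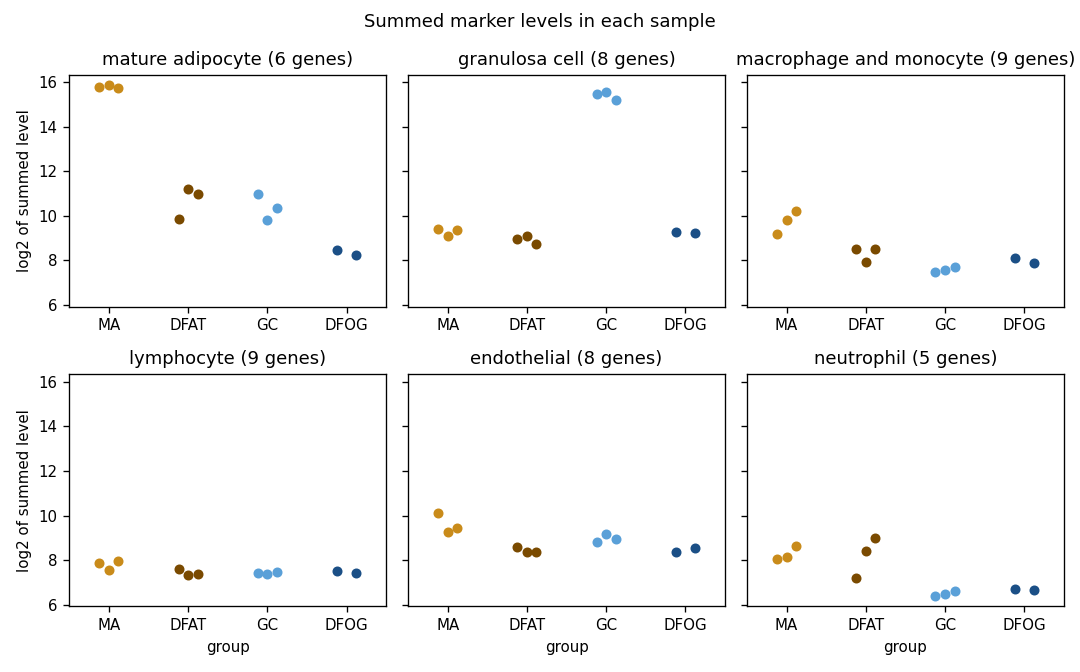
Summed level of the measured markers of 6 cell types (log2 of the sum of linear levels, vertical axis) in each sample of MA, DFAT, GC and DFOG; each point is 1 sample. Adipocyte markers are highest in MA and granulosa markers in GC, and the 3 MA samples hold the highest macrophage marker sums, from 9.21 to 10.20.

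The cultured cells of both origins held more RNA for a shared set of 8 cytokine and receptor genes. CXCL14, IL18, IL1R1, LIF, IL6, IL27RA, TNFRSF12A and TNFRSF1B rose both from MA to DFAT and from GC to DFOG. The DFOG calls of IL6 and IL27RA were lost in some fits that left out a replicate. No member fell in both comparisons by limma, and none rose in one and fell in the other, which 3.74% of all genes did. At an unadjusted p under 0.05, 1 member was lower in both (CXCL13) and 1 was opposite (IL18BP). A rise in both was also seen for 8.35% of all 6765 genes and in 11.6% of the members, while a fall in both was seen for 5.07% of all genes. In DFAT against MA, 12 of 69 members rose and 11 fell, shares of 17.4% and 15.9% against 20.7% and 20.4% of all genes. Together 33.3% of the members passed against 41.1% of all genes, so the counts lay a little under the background. In DFOG against GC, 14 members rose, or 20.3% against 17.3% of all genes, and 1 fell, or 1.45% against 13.4%. Together 21.7% of the members passed against 30.6% of all genes. The median change of the members was -0.02 in DFAT against MA and 0.10 in DFOG against GC, beside -0.02 and 0.03 over all genes. With all 12 arrays entered separately, 3 members fell in DFOG, since CXCL13 and IL18BP then passed beside IL11RA, and the count was the same with the replicate number as a block. In both fits IL18BP thus rose in DFAT and fell in DFOG.

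**Figure D2:**
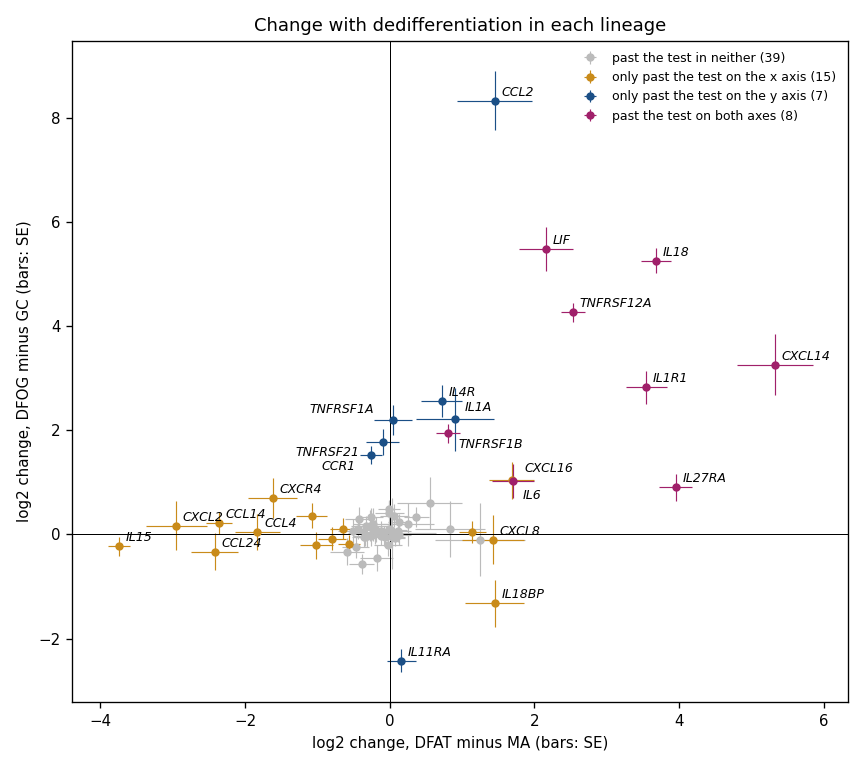
Log2 change of the 69 members from MA to DFAT (horizontal axis) and from GC to DFOG (vertical axis); points are genes, bars are standard errors from the fit, and colours show which comparison passed the test. The 8 genes past the test on both axes all lie above 0 on both axes, CCL2 stands apart at 8.33 on the vertical axis, and IL15 lies farthest left at -3.74.

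Among the chemokines, CCL2, which draws monocytes through its receptor CCR2, had the largest change of any member. It lay at 3.83, 4.16 and 4.22 in the GC samples and at 12.90 and 11.90 in DFOG. In fat cells it lay at 10.31, 12.02 and 11.20 in MA and at 11.70, 13.69 and 12.49 in DFAT. The GC samples were thus low and apart from every other sample, and MA and DFAT overlapped. The change from GC to DFOG was 8.33 ± 0.57 (SE, adjusted p = 1.62e-06), and that from MA to DFAT was 1.45 ± 0.51 (adjusted p = 0.0512). The latter passed with all 12 arrays entered separately, with the replicate block, with the filter on dim probe sets, renewed quantile normalization, poly-A centring or the mean over probe sets, and without MA 2 or DFAT 1. CCR2 itself had group means between 5.30 and 5.59 and passed no comparison.

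CXCL14, a chemokine made in many epithelia and by stromal cells, was the member with the largest rise in fat cells. Its levels were 5.75, 6.23 and 6.20 in MA and 10.15, 11.35 and 12.66 in DFAT, a change of 5.32 ± 0.52 (SE, adjusted p = 1.53e-05). In granulosa cells they were 4.07, 4.15 and 4.33 before and 6.75 and 8.12 after culture, a change of 3.26 ± 0.59 (adjusted p = 0.00184). The groups did not overlap in either lineage, and the cultured samples of each spread over more than 1 log2 unit. A further CXCL14 probe set rose in DFAT by 4.92 and stood 1.33 higher in DFOG than in GC without passing the test (adjusted p = 0.293).

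CXCL16, a membrane-bound chemokine and the ligand of CXCR6, rose in DFAT by 1.69 ± 0.32 (SE, adjusted p = 0.00168). It lay at 7.42 to 7.80 in MA and at 8.66 to 10.01 in DFAT. The difference between DFOG and GC was 1.04 ± 0.35 with an adjusted p of 0.053, although the samples did not overlap. It passed with all 12 arrays, with the replicate block, with the filter on dim probe sets or renewed quantile normalization, and without DFAT 1, DFAT 2 or GC 3. CXCR6 stayed between 3.55 and 4.83 in all samples and passed no comparison.

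The neutrophil attractants CXCL2 and CXCL8 share a receptor and have 4 other genes between them in the RefSeq annotation Sscrofa11.1. Their changes in fat cells had opposite signs, that of CXCL8 with a less stable call. CXCL2 lay at 9.19, 8.53 and 8.76 in MA and at 5.33, 7.12 and 5.18 in DFAT, a change of -2.95 ± 0.42 (SE, adjusted p = 0.000247). CXCL8 lay at 3.51, 4.65 and 4.83 in MA and at 5.90, 6.57 and 4.80 in DFAT, a change of 1.43 ± 0.42 (adjusted p = 0.0232). The CXCL2 groups were apart with DFAT 2 nearest to MA, while those of CXCL8 overlapped. The call of CXCL8 was lost without MA 1, DFAT 1 or DFAT 2 and with the actin difference as a covariate. The filter on dim probe sets left CXCL8 out. In GC and DFOG both genes stayed near the floor, CXCL2 at 3.17 to 3.62 and CXCL8 at 3.26 to 3.58.

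Another 5 chemokines fell from MA to DFAT. CCL14 lay at 6.45, 6.68 and 6.26 in MA and at 4.05, 4.22 and 4.04 in DFAT (-2.36 ± 0.18 SE, adjusted p = 2.43e-06). CCL24, an attractant of eosinophils, lay at 5.21, 6.52 and 6.66 in MA and at 3.88, 3.64 and 3.61 in DFAT (-2.42 ± 0.32, adjusted p = 0.000151). CCL4, a chemokine made by activated macrophages and lymphocytes, lay at 6.59, 6.40 and 7.73 in MA and at 4.83, 5.22 and 5.19 in DFAT (-1.83 ± 0.30, adjusted p = 0.000745). CCL8 and CXCL9 changed by -1.01 and -0.80 and lost the call with the actin covariate. They also lost it when each array was centred on its poly-A controls, RNAs added in known amounts. All 5 were higher in every MA sample than in any DFAT, GC or DFOG sample. Bulk RNA cannot tell fewer cells of a type from less RNA per cell.

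Most macrophage markers also fell in DFAT, as did 6 of 6 adipocyte markers and 4 of 8 endothelial markers. Of the 9 measured macrophage markers, 7 fell from MA to DFAT, among them C1QC (-3.59), CD74 (-3.24) and LAPTM5 (-2.48), and none rose. Within MA the summed macrophage marker level was 9.21, 9.82 and 10.20 in replicates 1, 2 and 3. Of the 11 members that fell, CCL24, CCL8, CXCL9, CXCR4, IL2RA and IL15 took the same order over these 3 samples, while CCL14, CCL4, CXCL2, IL2 and IL34 did not. The actin 3′ minus 5′ difference was 2.48, 1.67 and 1.50 in MA 1, 2 and 3, the opposite order. Macrophage marker level and RNA length thus cannot be told apart over these samples. How many of all genes take this order was not counted. The part of macrophage RNA in the falls was not tested.

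The remaining 9 chemokines passed neither dedifferentiation test. CCL19, a ligand of CCR7, lay at 5.59 to 6.67 in MA and at 6.04, 6.47 and 8.20 in DFAT. CCL5 lay at 7.64 in DFAT 2 and at 5.45 to 6.41 in every other sample. CXCL12, the ligand of CXCR4, had probe sets that disagreed: the brighter differed by -0.43 between DFAT and MA (adjusted p = 0.126), and the dimmer rose by 1.45 (adjusted p = 0.00763). CXCL13 differed by -0.57 between DFOG and GC (adjusted p = 0.054). CCL21, CCL25, CCL27, CCL28 and CCL3L1 had differences between -0.44 and 0.33 in both comparisons.

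Of the 7 chemokine receptors, CXCR4, the receptor of CXCL12, and CCR1 passed a dedifferentiation test. That is 1 in each comparison, while 41.1% of all genes passed in DFAT and 30.6% in DFOG. CXCR4 lay at 4.95, 5.26 and 5.62 in MA, at 4.02, 3.92 and 3.04 in DFAT, at 7.18, 6.30 and 6.09 in GC and at 7.53 and 6.91 in DFOG. It fell in DFAT with a log2 change of -1.62 ± 0.34 (SE, adjusted p = 0.00361) and stood 0.70 ± 0.38 higher in DFOG than in GC (adjusted p = 0.236). CXCR4 was thus lowest in DFAT and highest in the granulosa lineage, with overlap between GC and DFOG. CCR1, a receptor of several CC chemokines, lay at 3.57 to 4.04 in MA, DFAT and GC and at 5.25 and 5.37 in DFOG, a rise of 1.53 ± 0.17 (adjusted p = 5.8e-05) that lost its call with poly-A centring. CCR1, CCR3 and CCR2 follow one another in RefSeq Sscrofa11.1, and CCR2 and CCR3 differed by at most 0.11 in size in either comparison. CCR7, CCR9 and CXCR6 passed neither dedifferentiation test.

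**Figure D3:**
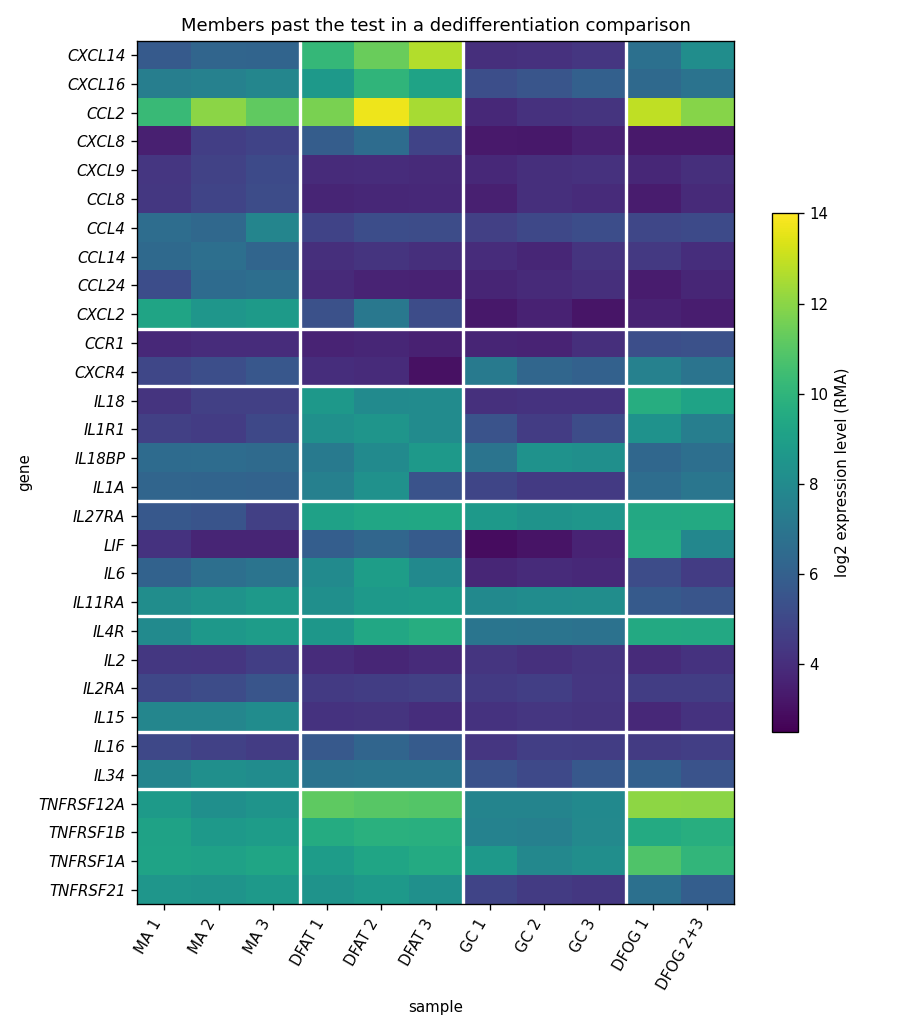
Log2 level of the 30 members that passed a dedifferentiation test (rows, in blocks by family) in each of the 11 samples (columns); brighter colours are higher levels. CCL2 is dark in GC and bright in all other samples, IL15 is bright in MA alone, and the IL18, IL1R1 and LIF rows are brighter in cultured than in isolated cells.

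In the IL-1 family, IL18 and the receptor IL1R1 rose in both lineages. IL18, a cytokine that drives interferon gamma production, lay at 4.24, 4.67 and 4.70 in MA and at 8.62, 7.99 and 8.05 in DFAT. In granulosa cells it lay at 4.11, 4.18 and 4.17 before and at 9.64 and 9.18 after culture. Isolated cells of both kinds were low and cultured cells high, with no overlap. The rises were 3.68 ± 0.21 (SE, adjusted p = 2.63e-07) and 5.26 ± 0.23 (adjusted p = 6.82e-08).

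IL18BP, the secreted inhibitor that binds IL-18, had a different pattern. It lay at 6.52, 6.55 and 6.49 in MA and at 7.22, 8.01 and 8.69 in DFAT, a rise of 1.45 ± 0.40 (SE, adjusted p = 0.0172) that lost its call without MA 3 or DFAT 3. In GC it lay at 6.92, 8.36 and 8.25 and in DFOG at 6.32 and 6.71, a difference of -1.32 ± 0.45 (adjusted p = 0.0545). The signs in the lineages were opposite, and the difference between the 2 changes was 2.78 ± 0.61 (adjusted p = 0.00651). IL18R1, a chain of the IL-18 receptor, stayed between 3.51 and 4.02 in all samples.

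IL1R1, the signalling receptor of IL-1, lay at 4.67, 4.53 and 4.99 in MA and at 8.29, 8.51 and 8.05 in DFAT. It lay at 5.46, 4.55 and 5.19 in GC and at 8.36 and 7.43 in DFOG. The samples did not overlap in either lineage, with rises of 3.55 ± 0.28 (SE, adjusted p = 3.24e-06) and 2.83 ± 0.32 (adjusted p = 6.56e-05). A dimmer IL1R1 probe set differed by -0.14 and 0.18 and passed neither test.

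Of the IL-1 ligands, IL1A rose in DFOG, from 4.89, 4.46 and 4.44 in GC to 6.61 and 7.0 (2.21 ± 0.61 SE, adjusted p = 0.0206). The adjusted p was 0.056 without GC 2, 0.0602 without GC 3, 0.074 without DFOG 1 and 0.23 with the actin covariate. In fat cells it lay at 6.14 to 6.25 in MA and at 7.53, 8.32 and 5.45 in DFAT, so DFAT 3 lay below and the other DFAT samples above MA. IL1B stayed between 6.36 and 7.33 in all samples and passed no comparison.

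**Figure D4:**
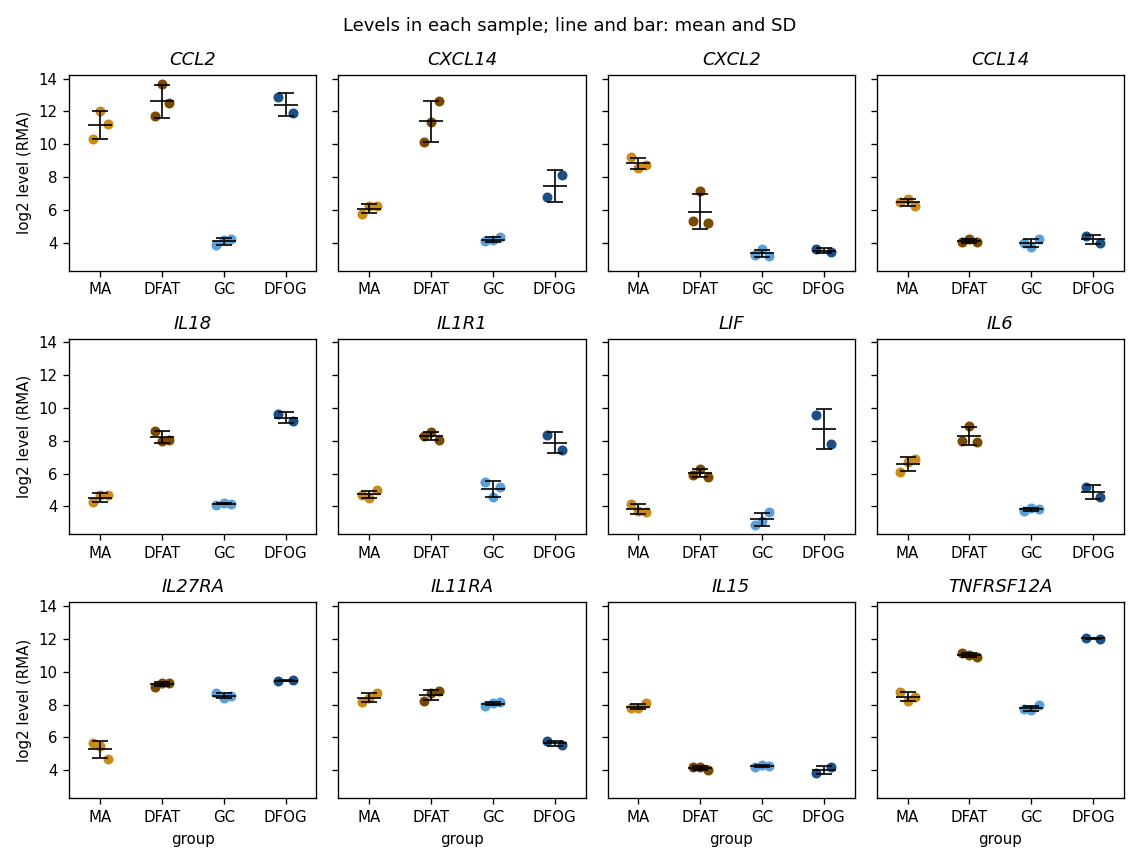
Log2 level of 12 members with large changes in each sample of the 4 groups; points are samples, and the line and bar give the mean and SD. IL18 and IL1R1 are high in both cultured groups, CCL2 is low in GC alone, IL15 is high in MA alone, IL27RA is low in MA alone and IL11RA is low in DFOG alone.

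Of the 8 genes of the IL-6 and IL-12 family, LIF, IL6, IL27RA and IL11RA passed a dedifferentiation test. In DFAT 3 rose, and in DFOG 3 rose and 1 fell, while 41.1% and 30.6% of all genes passed. LIF, a cytokine that signals through LIFR and gp130 and is known for effects on stem cells and embryo implantation, lay at 4.17, 3.69 and 3.67 in MA and at 5.93, 6.28 and 5.81 in DFAT. In granulosa cells it lay at 2.89, 3.11 and 3.63 before and at 9.56 and 7.83 after culture. The groups did not overlap, and the DFOG samples were the highest of all. The rises were 2.16 ± 0.38 (SE, adjusted p = 0.000988) and 5.48 ± 0.42 (adjusted p = 3.7e-06), and their difference of -3.32 ± 0.56 passed the test (adjusted p = 0.00143).

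IL6, a cytokine of the acute phase that fat tissue also secretes, lay at 6.12, 6.70 and 6.90 in MA and at 7.99, 8.91 and 7.94 in DFAT. It lay at 3.73, 3.91 and 3.84 in GC and at 5.16 and 4.55 in DFOG. Both fat groups were above both granulosa groups, and in each lineage the cultured samples were above the isolated ones. The rises were 1.70 ± 0.29 (SE, adjusted p = 0.000848) and 1.03 ± 0.32 (adjusted p = 0.0386). With the actin covariate the change in fat cells was 1.06 (adjusted p = 0.097), and the call in DFOG was also lost there, with poly-A centring, and without MA 2, any GC replicate or DFOG 1. The receptor gene IL6R stayed between 3.92 and 5.01 in all samples and passed no comparison.

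The receptor chains IL27RA and IL11RA each differed from the rest in 1 group. IL27RA, a chain of the IL-27 receptor, lay at 5.68, 5.47 and 4.70 in MA and at 9.09, 9.30 and 9.33 in DFAT, a rise of 3.96 ± 0.23 (SE, adjusted p = 3.03e-07). It lay at 8.39 to 8.71 in GC and at 9.42 and 9.49 in DFOG, a rise of 0.91 ± 0.26 (adjusted p = 0.0236) that was lost without GC 2, GC 3 or DFOG 1 and with poly-A centring. IL11RA, the specific chain of the IL-11 receptor, lay at 7.94, 8.08 and 8.15 in GC and at 5.75 and 5.53 in DFOG. It was the 1 member that fell there (-2.42 ± 0.22, adjusted p = 1.4e-05). In MA and DFAT it stayed between 8.15 and 8.83. The IL-12 genes IL12A, IL12B and IL12RB2 had differences between -0.05 and 0.42 and passed neither dedifferentiation test.

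Among the interleukins that use the common gamma chain, and their relatives IL13 and IL13RA1, IL15 stood out in fat cells. IL15, a growth factor of natural killer and memory T cells, lay at 7.76, 7.79 and 8.07 in MA. It lay at 4.20, 4.21 and 3.99 in DFAT, at 4.17, 4.30 and 4.22 in GC and at 3.83 and 4.17 in DFOG. The 3 MA samples were high and the other 8 samples lay between 3.83 and 4.30. The fall in DFAT was -3.74 ± 0.16 (SE, adjusted p = 2.65e-08). Its shared receptor chain IL2RG had group means of 4.49 to 4.84 and passed no comparison.

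IL4R, the receptor chain for IL-4 and IL-13, lay at 6.96, 6.90 and 6.82 in GC and at 9.48 and 9.44 in DFOG, a rise of 2.56 ± 0.31 (SE, adjusted p = 0.00012). In fat cells it lay at 7.99 to 8.85 in MA and at 8.59 to 9.67 in DFAT, and these overlapped (0.72 ± 0.28, adjusted p = 0.0734). That difference passed with the replicate block, with poly-A centring and without DFAT 1. Another IL4R probe set passed neither test. It stood 0.68 higher in DFOG than in GC (adjusted p = 0.0891) and 0.14 higher in DFAT than in MA. The ligands IL4 and IL13 stayed between 3.44 and 4.41 in all samples. IL13RA1 lay at 6.81 in GC 1 against 4.92 and 5.48 in the other GC samples and passed no comparison. IL2 and IL2RA fell in DFAT with log2 changes of -0.56 and -0.64, small changes lost with the actin covariate, with poly-A centring and without MA 3, and for IL2 also without DFAT 2. With poly-A centring the change of IL2 also turned its sign. IL7, IL7R and IL21 passed neither dedifferentiation test.

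Among the other interleukins and the colony-stimulating factors, IL16 and IL34 changed, in fat cells. IL16, a ligand of CD4, lay at 4.99, 4.74 and 4.57 in MA and at 5.69, 6.23 and 5.81 in DFAT, a rise of 1.15 ± 0.19 (SE, adjusted p = 0.000622). IL34, a ligand of the receptor that also binds CSF1, lay at 7.74, 8.22 and 8.11 in MA and at 6.89, 6.96 and 6.99 in DFAT, a fall of -1.08 ± 0.21 (adjusted p = 0.00217). Neither overlapped between the fat groups, and in DFOG against GC the differences of 0.05 and 0.36 did not pass (adjusted p = 0.921 and 0.328). The call of IL34 was lost with poly-A centring. CSF2, CSF3, IL5, IL10, IL10RB, IL17A and IL17B had differences between -0.47 and 0.16 and passed neither test, while the 2 dimmer IL17B probe sets fell in DFAT with log2 changes of -0.72 and -1.78.

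In the TNF family, 4 of the 5 receptors passed a dedifferentiation test, and none of the 4 ligands did. At an unadjusted p under 0.05, TNF alone did so in DFAT, and 0 ligands in DFOG. Of these 9 genes, 2 rose in DFAT and 4 in DFOG, beside 20.7% and 17.3% of all genes. How many of all genes passed at least 1 of the tests was not counted. TNFRSF12A, the receptor of the cytokine TWEAK, lay at 8.75, 8.23 and 8.46 in MA and at 11.13, 11.01 and 10.93 in DFAT. It lay at 7.70, 7.67 and 7.94 in GC and at 12.06 and 12.02 in DFOG. Cultured cells of both kinds were above all isolated cells, with rises of 2.54 ± 0.16 (SE, adjusted p = 6.82e-07) and 4.27 ± 0.18 (adjusted p = 5.15e-08). Its other probe set rose by 3.93 and 5.92.

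TNFRSF1B and TNFRSF1A are the receptors of TNF itself. TNFRSF1B lay at 9.11, 8.73 and 8.84 in MA and at 9.59, 9.78 and 9.74 in DFAT (0.81 ± 0.16 SE, adjusted p = 0.00267). It lay at 7.59, 7.51 and 7.91 in GC and at 9.53 and 9.70 in DFOG (1.94 ± 0.18, adjusted p = 1.73e-05). The levels of TNFRSF1A overlapped in fat cells, at 9.08 to 9.28 in MA and 8.87 to 9.52 in DFAT, and rose from 8.72, 7.86 and 8.20 in GC to 10.85 and 10.07 in DFOG (2.20 ± 0.30, adjusted p = 0.000247). TNF stayed between 5.15 and 6.24 and passed no comparison.

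TNFRSF21, known as death receptor 6, lay at 4.85, 4.50 and 4.37 in GC and at 6.74 and 5.95 in DFOG, a rise of 1.77 ± 0.25 (SE, adjusted p = 0.000343). In fat cells it lay at 8.45 to 8.69 in MA and at 8.26 to 8.73 in DFAT. The granulosa lineage was low and moved up, and the fat lineage was high throughout. TNFRSF17, TNFSF4, TNFSF10 and TNFSF13 passed no comparison with the probe sets used, while a dimmer TNFSF13 probe set rose by 0.86 and 0.87 in DFAT and DFOG (adjusted p = 0.0215 and 0.0426).

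The changes with dedifferentiation were compared between the lineages with an interaction term, the change from MA to DFAT minus that from GC to DFOG. It passed for 20 of the 69 members, or 29% against 29.1% of all genes. It was positive for 4 and negative for 16, shares of 5.8% and 23.2% against 13.2% and 15.9% of all genes. The largest were CCL2 (-6.88 ± 0.77 SE, adjusted p = 8.57e-05), IL15 (-3.51 ± 0.23, adjusted p = 2.19e-06) and LIF. CXCL2 (-3.12) and CCL14 (-2.58) followed on the same side, and IL27RA (3.05), IL18BP (2.78) and IL11RA (2.58) on the other. Of the 8 genes that rose in both lineages, LIF, IL18, TNFRSF12A and TNFRSF1B rose more in granulosa cells and IL27RA more in fat cells. With poly-A centring the calls of IL18, TNFRSF12A and TNFRSF1B were lost and the sign of TNFRSF1B turned. For CXCL14, IL1R1 and IL6 the difference did not pass (2.07 ± 0.79, 0.72 ± 0.43 and 0.68 ± 0.43, adjusted p = 0.085, 0.276 and 0.322). That of CXCL14 passed with the replicate block, with poly-A centring, with the mean over its probe sets and without DFAT 1, and its other probe set passed (3.59, adjusted p = 0.0344). With poly-A centring, which moved the median interaction over all probe sets from -0.05 to 1.37, 32 members were higher and 5 lower, beside 16040 and 721 of all probe sets.

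The isolated cells were compared with each other, and the cultured cells with each other, to show how far the lineages differed before and after culture. In MA, 26 members were higher than in GC and 3 were lower, shares of 37.7% and 4.35% against 26.8% and 22.6% of all genes, and together 42% against 49.4%. In DFAT, 10 members were higher than in DFOG and 6 lower, 14.5% and 8.7% against 4.86% and 5.5% of all genes, and together 23.2% against 10.4%. The median difference of the members was 0.36 in the isolated and 0.11 in the cultured cells, against 0.09 and 0.01 over all genes. These comparisons use the same samples as those above. The split in isolated cells depends on the scale: with poly-A centring 8 members were higher and 42 lower in MA, as were 1146 and 19065 of all probe sets, whose median moved from 0.07 to -1.27. Under that centring 12 of the 29 called differences turned their sign, among them TNFRSF1A, TNFRSF1B and TNFRSF12A. None of the 6 largest described next did so.

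In isolated cells the largest differences were those of CCL2 (7.11 ± 0.51 SE higher in MA), CXCL2 (5.49 ± 0.42), TNFRSF21 (3.98 ± 0.22), IL15 (3.65 ± 0.16), IL27RA (-3.26 ± 0.23) and IL6 (2.75 ± 0.29), with adjusted p-values from 1.67e-08 to 1.76e-05. The GC means of CCL2, CXCL2, TNFRSF21, IL15 and IL6 lay under the dim bound of 4.60, so the size and order of these differences are uncertain. After culture CCL2 differed by 0.23 ± 0.57, IL15 by 0.13 ± 0.17 and IL27RA by -0.22 ± 0.26, none of which passed. CXCL2 (2.37), TNFRSF21 (2.11), IL6 (3.42 ± 0.32), IL34 (1.22), CXCL16 (2.62 ± 0.35), CXCL14 (3.95 ± 0.59) and CCL19 (2.15) were higher in the fat lineage after culture and before it. The earlier call of CCL19 (1.42, adjusted p = 0.0361) was lost with the actin covariate, with poly-A centring and without MA 1, MA 3, GC 1 or GC 2. Those of CXCL14 and CXCL16 were lost with poly-A centring, and that of CXCL14 also with the mean over probe sets. CXCR4 was lower in the fat lineage in both states (-1.25 ± 0.34 and -3.56 ± 0.38). LIF (-2.69 ± 0.42), CCR1 (-1.65) and IL18 (-1.19) were lower and IL11RA (2.95 ± 0.22), CXCL8 (2.48) and IL16 (1.35) higher in DFAT than in DFOG, and these 6 did not pass between MA and GC. TNFRSF12A and TNFRSF1A were higher in MA than in GC (0.71 and 0.91) and lower in DFAT than in DFOG (-1.02 and -1.24). With poly-A centring the calls of both genes were lost in both comparisons, as was that of IL18 in cultured cells. The call of TNFRSF1A in isolated cells was also lost without MA 3, GC 2 or GC 3. The calls of CCL19, CXCL2, CXCL8, IL18 and TNFRSF1A in cultured cells were lost without DFOG 1. That of CCL19 was also lost without MA 3, and that of TNFRSF1A without DFAT 1 or DFAT 2.

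**Figure D5:**
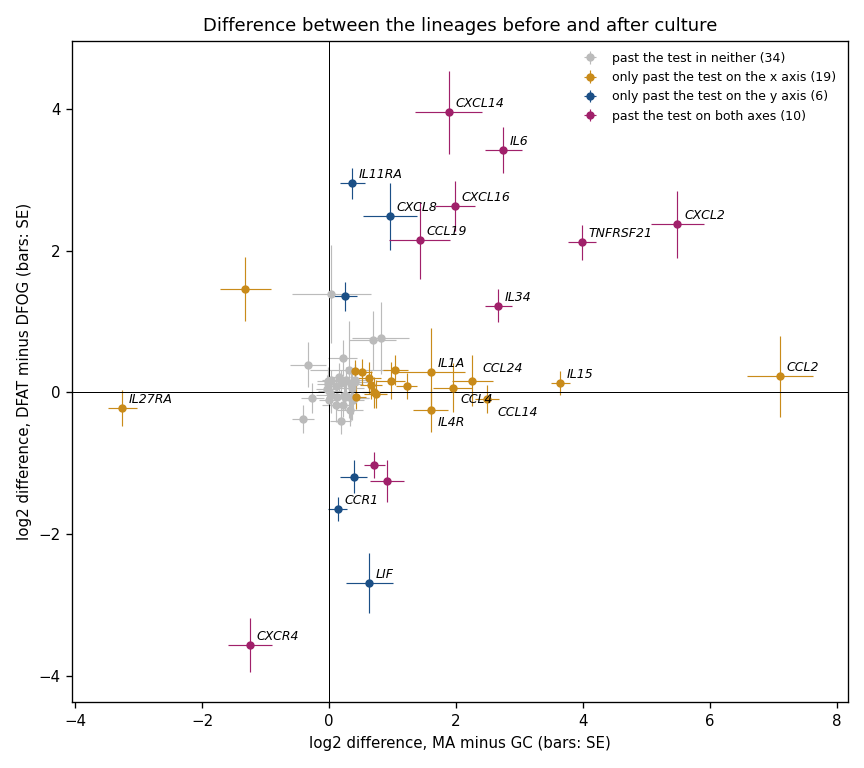
Log2 difference of the 69 members between the lineages in isolated cells (MA minus GC, horizontal axis) and in cultured cells (DFAT minus DFOG, vertical axis); points are genes and bars are standard errors. CCL2, IL15 and IL27RA lie far from 0 on the horizontal axis and near 0 on the vertical axis, while CXCL14, IL6 and CXCL16 lie above 2 on the vertical axis.

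Genes of the connected pathways were counted in lists of their own. Of 16 measured genes of JAK-STAT signalling, 2 rose and 7 fell in DFAT and 1 rose and 4 fell in DFOG (medians -0.23 and -0.01). GHR, the growth hormone receptor, fell with log2 changes of -4.15 and -1.32, STAT5A with -1.33 and -1.72 and SOCS1, an inhibitor of JAK kinases, with -1.36 and -1.88. Other genes differed between the lineages. JAK3 fell in DFOG with a log2 change of -2.72 and did not pass in DFAT (0.01). JAK1 fell in DFAT with a log2 change of -0.74 and rose in DFOG by 0.79. Of 22 genes of NF-kB, Toll-like receptor and IL-1 signalling, 1 rose and 6 fell in DFAT and 5 rose and 2 fell in DFOG (medians -0.19 and 0.23). NFKBIA, the inhibitor that NF-kB itself induces, fell with log2 changes of -1.99 and -2.03. The endotoxin receptor TLR4 fell in DFAT with a log2 change of -2.57, and its partner LY96 rose in DFOG by 4.95.

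Of 16 genes for TNF receptor adaptors and relatives, 6 rose and 3 fell in DFAT and 5 rose and 1 fell in DFOG (medians 0.39 and 0.16). CD40, a receptor of this family outside the symbol rule, rose by 2.02 and 2.01. TNFAIP8 fell in DFAT with a log2 change of -2.15 and rose in DFOG by 2.01. Of 12 interferon, interferon receptor and IRF genes, 3 rose and 3 fell in DFAT, with IRF1 at -2.96, and none passed limma in DFOG, or 1 at an unadjusted p under 0.05 (medians 0.00 and 0.17). Of 7 further chemoattractant genes, 1 rose and 2 fell in DFAT and 1 fell in DFOG (medians -0.20 and -0.13). MIF, the macrophage migration inhibitory factor, rose in DFAT by 2.13, and AMCF-II, a pig neutrophil attractant, fell in DFOG with a log2 change of -1.23. Of 5 growth factor relatives, 2 fell in DFAT and 2 rose and 1 fell in DFOG (medians -0.25 and -0.11), and the receptor KIT fell in both with log2 changes of -1.40 and -2.08. These shares stand beside the 20.7% and 20.4% of all genes that rose and fell in DFAT and the 17.3% and 13.4% in DFOG.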

How the data were processed

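The deposited values are log2 expression values of 24123 probe sets on 12 arrays, which the submitters' processing notes credit to RMA, without a version or settings. RMA removes background, gives all arrays 1 distribution and combines the probes of a set, so differences in total RNA per cell are lost. Per the labels' protocols, 5 µg of total RNA, extracted with Trizol and cleaned on columns, was amplified from its 3′ end and labelled with biotin.

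The values were used as deposited, and depth does not apply: the number of arrays limits the precision. After removal of 124 controls, 23999 probe sets were tested. Of these, 10069 had 1 gene symbol in the platform annotation, which can be old, 198 had several and 13732 had none here. Probe sets with several symbols were not used, including 2 that hold a symbol of the rule. All 69 members matched RefSeq Sscrofa11.1 by gene ID with the same symbol.

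Group means were fitted with limma 3.58.1 in R 4.3.3 (11 samples, 7 residual degrees of freedom), and 5 contrasts were tested two-sided. The fit was tested on simulated data. Figures used Python 3.11.15, numpy 2.4.6, pandas 2.3.3 and matplotlib 3.10.9. Samples of the same replicate number were checked for shared deviations from their group means. In GC and DFOG the correlations were 0.36 to 0.60, although DFOG replicates 2 and 3 are 1 sample, and in MA and DFAT they were 0.10 to 0.17. Between groups of different lineages they ran from -0.20 to 0.37, so those of MA and DFAT did not stand out. A fit with the number as a block was run as an alternative. Other alternatives were all 12 arrays, a filter that left out probe sets with a mean under 4.60, renewed quantile normalization, poly-A centring, an actin covariate, the mean over probe sets and leaving out each replicate.

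Members given in full are the 12 with the largest called change in each dedifferentiation comparison, 8 for the interaction and 6 for each lineage difference; others are given by role. From the lists, a few called genes are named, mostly those with large changes. The members and lists were chosen with earlier results of these data known.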

Additional observations from a re-analysis of the deposited data

Results flagged for a closer look

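The interaction term is the change from MA to DFAT minus that from GC to DFOG. By it (limma adjusted p under 0.05), the change with dedifferentiation differed between the lineages for 20 members, 29% against 29.1% of all genes. It was lower in fat cells for CCL2 (-6.88), IL15 (-3.51), LIF (-3.32), CXCL2 (-3.12), CCL14 (-2.58), CXCR4 (-2.31), TNFRSF1A (-2.15), CCL24 (-2.09), CCL4 (-1.88), TNFRSF21 (-1.87), IL4R (-1.84), CCR1 (-1.78), TNFRSF12A (-1.73), IL18 (-1.58), IL34 (-1.44) and TNFRSF1B (-1.13). It was higher in fat cells for IL16 (1.10), IL11RA (2.58), IL18BP (2.78) and IL27RA (3.05). Another IL4R probe set gave -0.55 and did not pass (adjusted p = 0.33). IL16 lost its call without DFOG 1. With poly-A centring 9 of the 20 kept theirs, and the value of TNFRSF1B turned its sign.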

How the results depend on the processing

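The 44 changes given in full are the largest called ones of each comparison. Leaving out a replicate of a group outside a comparison could not move its log2 change. Leaving out DFOG 2 or 3 only swaps nearly identical arrays. With these limits, the 44 changes kept their direction in all 835 values under other settings and their side of the threshold in 830. The exceptions were IL6 in DFAT with the actin covariate, and IL1A in DFOG with that covariate and without GC 2, GC 3 or DFOG 1. Poly-A centring moved the counts most. With it, 19 members were higher and 6 lower in DFAT than in MA, and 11 lower in DFOG than in GC. In the interaction 32 were higher and 5 lower, in MA against GC 8 and 42, and 3 were lower in DFAT than in DFOG. Calls and signs held for 18 of 23 members in DFAT against MA, 12 of 15 in DFOG against GC and 9 of 20 in the interaction. They held for 11 of 29 in MA against GC and 13 of 16 in DFAT against DFOG under this centring. Under it the all-probe-set median went from -0.07 to 0.56 in DFAT minus MA, where 83.7% of the called probe sets were then higher against 48.9%, and from -0.02 to -0.81 in DFOG minus GC, where it was 10.2% against 49.5%. Members lower in DFAT than in MA numbered 7 with the actin covariate and 7 after the filter on dim probe sets, which left out 22 members. Members lower in DFOG than in GC numbered 3 with all 12 arrays, 3 with the replicate block and 2 after the dim filter, and 1 to 3 when a replicate was left out (3 without DFAT 1 or GC 1, 2 without DFAT 3 or DFOG 3). Leaving out DFOG 1 leaves 1 sample there, assumed to vary like the other groups. The replicate block lost no call in any of the 5 comparisons and added CCL2, CCL3L1 and IL4R in DFAT, CXCL13, CXCL16, IL18BP and IL7 in DFOG, CCL8, CXCL9, CXCL12, CXCL14 and IL2RA in the interaction, and IL18BP in DFAT against DFOG. Without the block, all 12 arrays gave the same additions in DFOG. Both of these fits count DFOG replicates 2 and 3 as separate samples, so the added calls may rest on an understated spread. The actin covariate lost CCL19, IL12A, IL13 and IL7 in MA against GC. The causes of these differences were not tested.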

Other observations

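Single samples stood apart for a few members that passed no comparison. TNFSF10, the death ligand TRAIL, lay at 6.64 in DFAT 3 and at 3.17 to 3.74 in the other samples. TNFRSF17, a receptor of plasma cells, lay at 6.05 in MA 2 and 5.39 in DFAT 2 and at 3.41 to 4.67 elsewhere. CCL5 lay at 7.64 in DFAT 2, the sample that was also highest of all for CCL2 (13.69), CXCL8 (6.57), IL6 (8.91), IL1A (8.32) and CXCL16 (10.01). The same held for other members, such as IL13RA1 (7.75), IL16 (6.23) and TNFRSF1B (9.78). How often each sample was the highest was not counted over the members or all genes. DFAT 3 was the highest of all samples for CXCL14 (12.66), CCL19 (8.20) and IL18BP (8.69) and the lowest for CXCR4 (3.04).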
